A study of Mus musculus with 10 samples.

Results

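The 10 genes described here encode the ZFP36 family of RNA-binding proteins (Zfp36, Zfp36l1 and Zfp36l2), together with other proteins that bind AU-rich elements (Elavl1, Hnrnpd and Khsrp) and 4 enzymes or scaffolds of general mRNA decay (Cnot1, Upf1, Xrn1 and Dcp2). Members were chosen by gene name as known decay factors, with earlier results of these data known. Every Ensembl transcript of these genes in the count tables was taken. This gave 15 transcripts of the 10 genes, among 22534 transcripts of 13184 genes in all. Primary cultures of cortical cells from newborn (P0) FVB mice of both sexes, in which neurons and glia are mixed, were grown for 7 days and then left untreated (cultures 1, 2 and 3) or depolarized with KCl to a final 55 mM for 3 h (cultures 4 and 5). All cultures of both groups received cycloheximide, which stalls ribosomes on mRNA, for 7 min before lysis. From each culture, RNAseq measured transcript abundance and ribosome footprinting (RF), which sequences the 26 to 34 nt fragments that ribosomes shield from RNase, measured ribosomal occupancy. The question was how depolarization altered the abundance and the translation of transcripts.

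AU-rich elements are stretches of A and U in the 3′UTR of short-lived mRNAs, among them many immediate early genes and cytokines. ZFP36 proteins bind these elements and recruit the CCR4-NOT complex, which shortens the poly(A) tail, after which the cap is removed by DCP2 and the body of the mRNA is degraded from its 5′ end by XRN1. ELAVL1 (HuR) binds overlapping elements and is known mainly for stabilizing mRNAs, and several mRNAs of these regulators carry AU-rich elements themselves. Zfp36 is also a classical immediate early gene, induced within minutes of growth factor or calcium signals in many cells.

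Because the proteins of this group recognise AU-rich sequence, the 3′UTR of each lead transcript, the transcript of a gene with the highest mean RNAseq count, was searched on the transcript strand for the heptamer TATTTAT and the longer nonamer TTATTTATT, which contains it. The nonamer was present in the 3′UTR of all 3 ZFP36 family genes, once each, and 8 overlapping times in Elavl1. No nonamer was found in the other 6 genes. Over the 9694 genes with a tested lead transcript and an annotated 3′UTR, 8.17% held the nonamer and 30.4% the heptamer. Among 3′UTRs within 20% of the length of that of Zfp36 (774 bases), 4.24% held the nonamer, and among those within 20% of that of Elavl1 (4218 bases), 17.8% did. Heptamers numbered 3 in each ZFP36 family gene, 8 in Elavl1, 2 in Dcp2 and 0 in Hnrnpd, Khsrp, Cnot1, Upf1 and Xrn1. The first nonamer of each 3′UTR is shown with its flanks, in GRCm38, from 5′ to 3′ on the minus strand on which all 4 genes lie, with the nonamer in capitals. The site of Zfp36 was at chr7:28376951-28376979, that of Zfp36l1 at chr12:80108167-80108195, that of Zfp36l2 at chr17:84184914-84184942 and that of Elavl1 at chr8:4285788-4285816.
Zfp36: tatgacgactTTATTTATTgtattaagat
Zfp36l1: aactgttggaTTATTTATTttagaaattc
Zfp36l2: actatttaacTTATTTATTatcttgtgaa
Elavl1: gtcatgaaaaTTATTTATTtatttattta
The run in Elavl1 continues as tandem repeats, which is why its nonamers overlap. A match is a description of the sequence, and binding was not measured.

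RNAseq libraries held 3056286 to 3629959 counted reads and RF libraries 1463654 to 7719915, with the fewest footprints in untreated culture 3 and KCl culture 4. Levels are given as RPKM, reads scaled by length and by the effective library size of TMM (a scaling between libraries), over the whole transcript for RNAseq and over the coding sequence (CDS) for RF. Translation efficiency (TE) is the ratio of RF to RNAseq RPKM within a culture. Differences were tested with edgeR's quasi-likelihood test over all transcripts with a mean of at least 10 reads per library, and p-values were adjusted by Benjamini-Hochberg over all of them. All 15 member transcripts passed this filter in both assays. Cell type markers were read beside the members because a mixed culture can change in makeup: summed marker CPM (RNAseq) was 440 to 591 for neurons and 8932 to 10905 for astrocytes although the samples are labelled as neurons, and the ratio of KCl to untreated cultures was 1.09 for 9 neuronal markers, 0.861 for 8 astrocyte markers, 0.922 for 8 microglial markers, 0.946 for 8 markers of the oligodendrocyte lineage, 0.598 for 6 endothelial and mural markers and 0.936 for 4 fibroblast markers. The endothelial and mural ratio rests on a summed CPM of only 24.4 to 47.0 per library, and 2 of these 6 markers passed the read filter. Aqp4, Slc1a3, Cx3cr1, Tmem119, Pdgfra, Pdgfrb and Lum fell and Gad1 rose at an adjusted p under 0.05 (edgeR), and Map2 and Col1a2 were not analysed here. Whether fewer cells of a type or less RNA per cell underlies a value cannot be told apart in these bulk libraries, and the part of cell makeup in the results below was not tested.

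By edgeR, KCl raised the RNAseq level of 4 of the 10 genes (Zfp36, Elavl1, Khsrp and Cnot1). It raised the RF level of 6 (the same 4 together with Upf1 and Dcp2), and no member fell in either assay. Counting 1 transcript a gene, 13.4% of 9960 genes were higher and 12.2% lower in RNAseq by edgeR. In RF, 17.5% of 9630 genes were higher and 15.1% lower. DESeq2 called 3 members higher in RNAseq, without Khsrp, beside 1783 of all 16844 transcripts tested. It called 4 higher in RF, without Khsrp and Dcp2, beside 1916 of 16587 transcripts. The median log2 fold change of the 10 genes was 0.13 in RNAseq and 0.61 in RF, beside -0.02 and -0.00 over all genes. For TE, 0 of 10 genes passed the adjusted threshold by edgeR, where 0.840% of 9169 genes were higher and 2.17% lower. At an unadjusted p under 0.05, 3 members (Zfp36, Upf1 and Dcp2) had a higher TE by edgeR, beside 6.90% of all genes, and 0 by DESeq2, beside 3.29%. Among values below untreated, 1 gene (Zfp36l1, RNAseq) had an unadjusted p under 0.05 by each tool, beside 18.5% of all genes by edgeR and 14.4% by DESeq2, whereas in RF and TE 0 did by either tool.

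**Figure D1:**
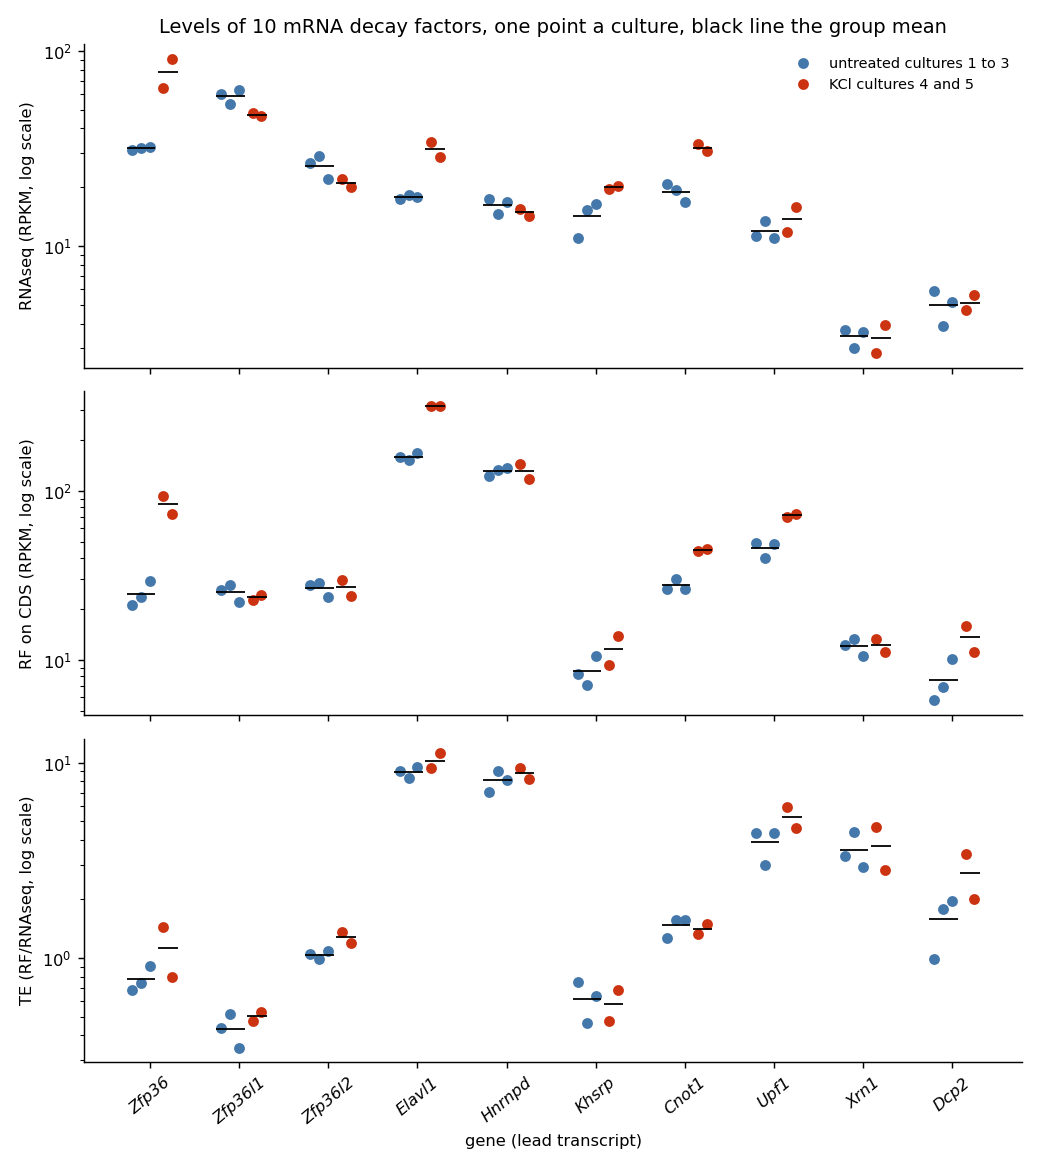
RNAseq and CDS RF level (RPKM) and TE (their ratio) of the lead transcript of each gene, on log axes, with one point for each of the 3 untreated (blue) and 2 KCl (red) cultures and a black line at the group mean. Zfp36 stands at 30.9 to 32.2 RPKM in untreated and at 64.8 and 91.0 RPKM in KCl cultures in RNAseq, while Xrn1 overlaps between groups in every panel.

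Zfp36 encodes tristetraprolin, which binds AU-rich elements and promotes decay of the mRNAs that carry them. The lead transcript, Zfp36-201 (ENSMUST00000051241), is the only one in the tables and lies on chromosome 7 from 28376784 to 28380253 on the minus strand, with 2 exons. Its RNAseq level was 30.9, 31.8 and 32.2 RPKM in the untreated cultures and 64.8 and 91.0 RPKM with KCl. Both KCl cultures therefore lay above all untreated cultures, with a wider gap between the KCl cultures than among the untreated ones. The rise was 2.46-fold (log2 fold change 1.30, SE 0.15, adjusted p = 1.88e-11, edgeR). On the CDS, RF was 21.1, 23.6 and 29.2 RPKM without and 93.4 and 73.0 RPKM with KCl. Again the groups did not overlap, and the rise was 3.49-fold (log2 1.80, SE 0.17, adjusted p = 3.20e-13, edgeR). The TE of Zfp36 was 0.682, 0.741 and 0.906 in untreated and 1.44 and 0.802 in KCl cultures, so that KCl culture 5 fell within the untreated range. The interaction of assay and KCl was a log2 difference of 0.48 (SE 0.23, unadjusted p = 0.0397, adjusted p = 0.315, edgeR), and a change in TE was not called. It came to 0.08 without KCl culture 4 and 0.92 without KCl culture 5. SE is here the absolute log2 change over the square root of the F statistic, an approximation.

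The reads on Zfp36 also shifted along the transcript. The 3′UTR held 30.6, 35.3 and 35.9% of its CDS and 3′UTR RNAseq reads in untreated cultures and 46.8 and 44.6% with KCl. CDS reads numbered 197, 183 and 177 in untreated and 286 and 471 in KCl cultures, and 3′UTR reads 87, 100 and 99 against 252 and 379. Over all transcripts the share on the 3′UTR was 54.0, 54.1 and 55.5% without and 57.5 and 56.1% with KCl. With RNAseq reads on the CDS alone, the rise of Zfp36 kept its call at a log2 fold change of 1.06 (adjusted p = 2.83e-07, edgeR). The annotated 5′UTR of Zfp36-201 spans 1056 bases and carried 12, 12 and 7 RNAseq reads in untreated and 17 and 20 in KCl cultures, and 3 footprints in all. Its RNAseq RPKM over the annotated length of 2790 bases is therefore diluted by sequence with few reads, which lowers its level and raises its TE against other genes by nearly the same factor in every culture.

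A RefSeq start of Zfp36 lies downstream, inside the first exon of Zfp36-201. The window from 250 bases before to 50 bases after this start (RefSeq, GRCm38.p6) was searched on both strands for the cyclic AMP response element TGACGTCA, the AP-1 site TGANTCA, the EGR site GCGTGGGCG and the core of the serum response element, sites for transcription factors known to act on immediate early genes. It held 1 serum response element core, the first base of which lies 58 bases before the start. The site is at chr7:28379267-28379296 and is shown on the minus strand, the strand of the gene, with the core in capitals.
Zfp36 promoter: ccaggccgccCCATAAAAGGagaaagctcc
The core occurs in 1.63% of 32851 RefSeq promoter windows of the same length. Promoter windows were given for 7 of the 10 genes, and among the other 6 the search found 1 AP-1 site in Zfp36l1 (7.81% of all windows) and 1 serum response element core in Hnrnpd. TGACGTCA (1.79% of all windows) and GCGTGGGCG (0.612%) were in none of the 7 windows.

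Zfp36l1 and Zfp36l2 encode the paralogs of tristetraprolin, which bind the same elements. Zfp36l1-201 (ENSMUST00000021552, chromosome 12, 80107754 to 80113013, minus strand, 2 exons) was at 59.9, 53.7 and 63.1 RPKM in untreated and 47.9 and 46.1 RPKM in KCl cultures in RNAseq. Both KCl cultures lay below all untreated cultures, and the log2 difference of -0.33 (SE 0.14) had an unadjusted p of 0.0250 and an adjusted p of 0.0854 (edgeR), past the threshold only before adjustment. Its RF was 26.1, 27.8 and 21.9 RPKM without and 22.8 and 24.3 RPKM with KCl. These overlapped, with a log2 difference of -0.13 and a 95% interval (from the SE) of -0.53 to 0.27. The second Zfp36l1 transcript, Zfp36l1-202, had the same CDS footprints, and its RNAseq difference of -0.36 (adjusted p = 0.148, edgeR) was not called. Zfp36l2-201 (ENSMUST00000060366, chromosome 17, 84183931 to 84187947, minus strand, 2 exons) stood at 26.6, 28.9 and 21.9 RPKM in untreated and 22.1 and 20.01 RPKM in KCl cultures in RNAseq. The groups overlapped, and the log2 difference was -0.29 (interval -0.61 to 0.02, adjusted p = 0.185, edgeR). Its RF was 27.7, 28.4 and 23.7 RPKM without and 29.8 and 23.9 RPKM with KCl, and the interval of the log2 difference was -0.39 to 0.29. Scaling by library totals instead of TMM gave both RNAseq differences an adjusted p under 0.05 (-0.46 for Zfp36l1 and -0.43 for Zfp36l2), on a scale on which the median of all transcripts moved to -0.15. Restricted to the transcripts that pass the study's RPKM filter, Zfp36l1 was also called lower (log2 -0.39, adjusted p = 0.0279, edgeR).

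By RNAseq RPKM over the whole annotated transcript, the order within the family differed between untreated and KCl cultures. In untreated cultures Zfp36l1 was the most abundant of the 3 in RNAseq, followed by Zfp36 and Zfp36l2, without overlap between neighbours. With KCl, Zfp36 was above Zfp36l1 in both cultures. This order rests on the lead transcript of each gene and on its annotated length, which for Zfp36 includes a 5′UTR with few reads. On the CDS alone, Zfp36 (960 bases) had 197, 183 and 177 untreated RNAseq reads. Zfp36l1 (1017 bases) had 44, 59 and 85, and Zfp36l2 (1455 bases) had 10, 20 and 13. By CDS reads, Zfp36 thus led both with and without KCl. Zfp36 made up 26.3, 27.8 and 27.4% of the summed RNAseq RPKM of the family in untreated cultures and 48.0 and 57.9% in KCl cultures. In RF, the 3 genes overlapped in untreated cultures. Zfp36 took 28.2, 29.5 and 39.0% of the summed RF RPKM of the lead transcripts without KCl and 64.0 and 60.2% with it. This share was chosen after the values were seen. An exact permutation test of it gave a two-sided p of 0.2 in each assay, the smallest that the 10 ways of dividing 5 cultures into 3 and 2 allow when both tails are counted.

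Elavl1 encodes HuR, which binds AU-rich elements and is known for protecting mRNAs from decay. Elavl1-201 (ENSMUST00000098950) lies on chromosome 8 from 4285382 to 4325413 on the minus strand, with 6 exons. RNAseq gave 17.4, 18.3 and 17.8 RPKM in untreated and 34.1 and 28.5 RPKM in KCl cultures. This was a 1.75-fold rise without overlap (log2 0.81, SE 0.14, adjusted p = 6.82e-06, edgeR). RF on its CDS was 158, 153 and 168 RPKM without and 318 and 317 RPKM with KCl. The KCl cultures lay close together and well above the untreated cultures, a 2.00-fold rise (log2 1.00, SE 0.10, adjusted p = 1.53e-12, edgeR). Its TE, 8.35 to 9.46 in untreated and 9.33 and 11.1 in KCl cultures, was in the top 5% of genes, since 95.1% of 9169 genes had a lower untreated TE, and the log2 difference in TE was 0.18 (interval -0.18 to 0.55, adjusted p = 0.731, edgeR). Most of the RNAseq reads on Elavl1 came from its long 3′UTR, 70.7 to 77.3% of CDS and 3′UTR reads in untreated and 78.2 and 81.8% in KCl cultures. On the CDS it had 78, 101 and 94 reads without and 131 and 102 with KCl, and with CDS reads alone the log2 rise was 0.41 (adjusted p = 0.195, edgeR) and was no longer called.

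Hnrnpd and Khsrp, which encode AUF1 and KSRP, bind AU-rich elements and are known to promote decay. Hnrnpd-211 (ENSMUST00000172361, chromosome 5, 99955935 to 99978938, minus strand, 9 exons), the lead of 4 Hnrnpd transcripts, was at 17.3, 14.6 and 16.8 RPKM in untreated and 15.5 and 14.3 RPKM in KCl cultures in RNAseq. Its RF was 123, 132 and 136 RPKM without and 145 and 118 RPKM with KCl. Both overlapped between groups, with log2 differences of -0.12 (interval -0.42 to 0.17) and 0.00 (interval -0.23 to 0.23). The other 3 Hnrnpd transcripts, which share reads with the lead, had RNAseq differences of -0.01 to 0.06 and RF differences of 0.01 to 0.10 on the log2 scale, and none was called. Khsrp-201 (ENSMUST00000007814, chromosome 17, 57021051 to 57031488, minus strand, 18 exons) gave 11.0, 15.3 and 16.5 RPKM in untreated and 19.6 and 20.2 RPKM in KCl cultures in RNAseq, a log2 rise of 0.49 (SE 0.17, adjusted p = 0.0277, edgeR). RF was 8.24, 7.08 and 10.5 RPKM without and 9.34 and 13.8 RPKM with KCl, and the called log2 rise of 0.56 (SE 0.22, adjusted p = 0.0442, edgeR) rests on groups that overlap. Of the RNAseq reads on Khsrp, 122 to 247 per library fell on the 3′UTR and only 2 to 4 on the CDS, while 29 to 139 footprints fell on the CDS. Both Khsrp calls were lost under 6 of 12 (RNAseq) and 9 of 13 (RF) alternatives, and without KCl culture 5 the RF difference was 0.19 (adjusted p = 0.774, edgeR).

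**Figure D2:**
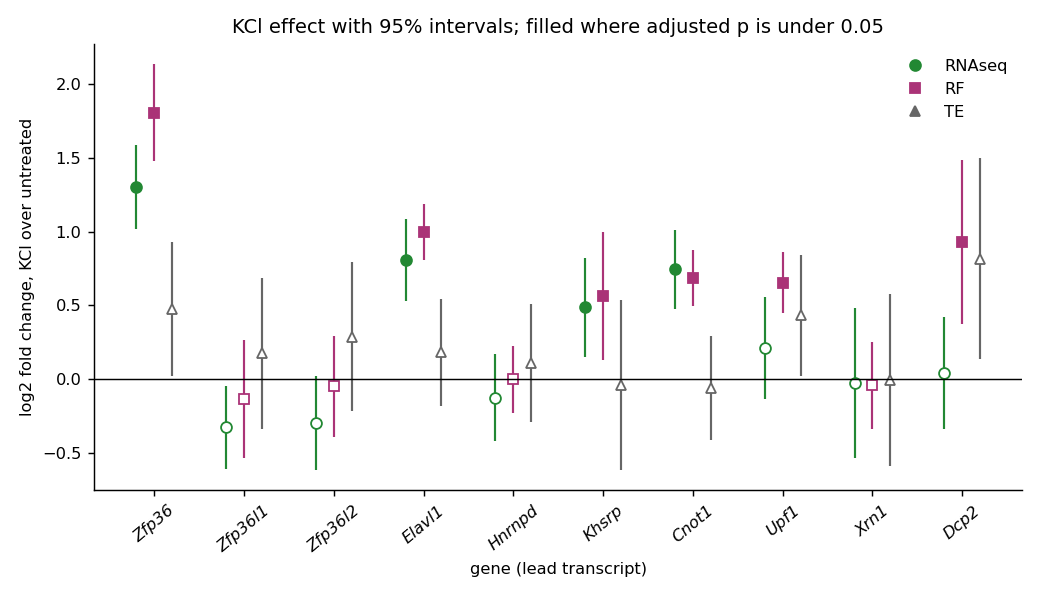
Log2 fold change of KCl over untreated cultures for RNAseq (circles), RF (squares) and TE (triangles) of each gene's lead transcript, with bars of 95% intervals and filled symbols where the adjusted p is under 0.05 (edgeR). Filled RNAseq symbols are those of Zfp36, Elavl1, Khsrp and Cnot1, RF is filled for these and for Upf1 and Dcp2, and no TE symbol is filled.

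Cnot1 encodes the scaffold of the CCR4-NOT deadenylase, to which ZFP36 proteins bind. Cnot1-201 (ENSMUST00000068452, chromosome 8, 95719458 to 95807381, minus strand, 48 exons) was at 20.8, 19.4 and 16.8 RPKM in untreated and 33.2 and 30.6 RPKM in KCl cultures in RNAseq. The groups were well apart, and the rise was 1.68-fold (log2 0.75, SE 0.14, adjusted p = 1.29e-05, edgeR). RF was 26.3, 30.2 and 26.4 RPKM without and 43.8 and 45.4 RPKM with KCl, a 1.61-fold rise (log2 0.69, SE 0.10, adjusted p = 7.45e-08, edgeR). TE differed by -0.06 on the log2 scale (interval -0.41 to 0.29). A second transcript, Cnot1-202, with nearly the same read counts, rose in both assays as well (log2 0.75 in RNAseq and 0.69 in RF). Reads mapping to several transcripts were kept by the authors, so the isoforms of a gene are not independent observations.

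Upf1 encodes the helicase at the centre of nonsense-mediated decay (NMD), which removes mRNAs with premature stop codons. Upf1-201 (ENSMUST00000075666, chromosome 8, 70331525 to 70353278, minus strand, 24 exons) overlapped between groups in RNAseq, at 11.3, 13.4 and 11.1 RPKM in untreated and 11.8 and 15.9 RPKM in KCl cultures. Its RF was 49.2, 40.2 and 48.3 RPKM without and 70.1 and 73.2 RPKM with KCl. Footprints on the CDS thus rose 1.57-fold (log2 0.65, SE 0.10, adjusted p = 1.19e-06, edgeR), while the RNAseq difference was 0.21 (interval -0.13 to 0.56, adjusted p = 0.408, edgeR). TE was 4.35, 3.00 and 4.37 in untreated and 5.95 and 4.62 in KCl cultures. These did not overlap, but the test of the difference between the assays gave a log2 value of 0.43 (SE 0.21, unadjusted p = 0.0378, adjusted p = 0.309, edgeR), so RF and RNAseq were not shown to respond differently.

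Dcp2, the catalytic subunit of the decapping enzyme, rose in RF and did not pass the test in RNAseq or TE. Dcp2-201 (ENSMUST00000025350, chromosome 18, 44380527 to 44424969, plus strand, 11 exons) was at 5.89, 3.88 and 5.19 RPKM in untreated and 4.69 and 5.59 RPKM in KCl cultures in RNAseq, a log2 difference of 0.04 (interval -0.33 to 0.42). RF was 5.77, 6.89 and 10.2 RPKM without and 16.0 and 11.2 RPKM with KCl. Without overlap, RF rose 1.90-fold (log2 0.93, SE 0.28, adjusted p = 0.00883, edgeR), on 55, 56 and 18 footprints in untreated and 28 and 38 in KCl cultures. The TE difference was 0.82 (SE 0.35, unadjusted p = 0.0190, adjusted p = 0.215, edgeR), and ranged from 0.44 without untreated culture 1 to 1.23 without KCl culture 5. The RF call was lost with DESeq2 (adjusted p = 0.0822), without untreated culture 1 (log2 0.75, adjusted p = 0.0690, edgeR) and without KCl culture 4 (log2 0.70, adjusted p = 0.168, edgeR).

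Xrn1, the cytoplasmic exonuclease that degrades decapped mRNA, did not pass the test in any measure. Xrn1-201 (ENSMUST00000034981, chromosome 9, 95954760 to 96053027, plus strand, 42 exons) had 3.71, 3.01 and 3.63 RPKM in untreated and 2.84 and 3.93 RPKM in KCl cultures in RNAseq, and 12.3, 13.3 and 10.5 against 13.3 and 11.1 RPKM in RF. The log2 differences were -0.02 (interval -0.53 to 0.48) in RNAseq and -0.04 (interval -0.33 to 0.25) in RF, so that for RF a change beyond 0.33 in either direction lies outside the interval.

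**Figure D3:**
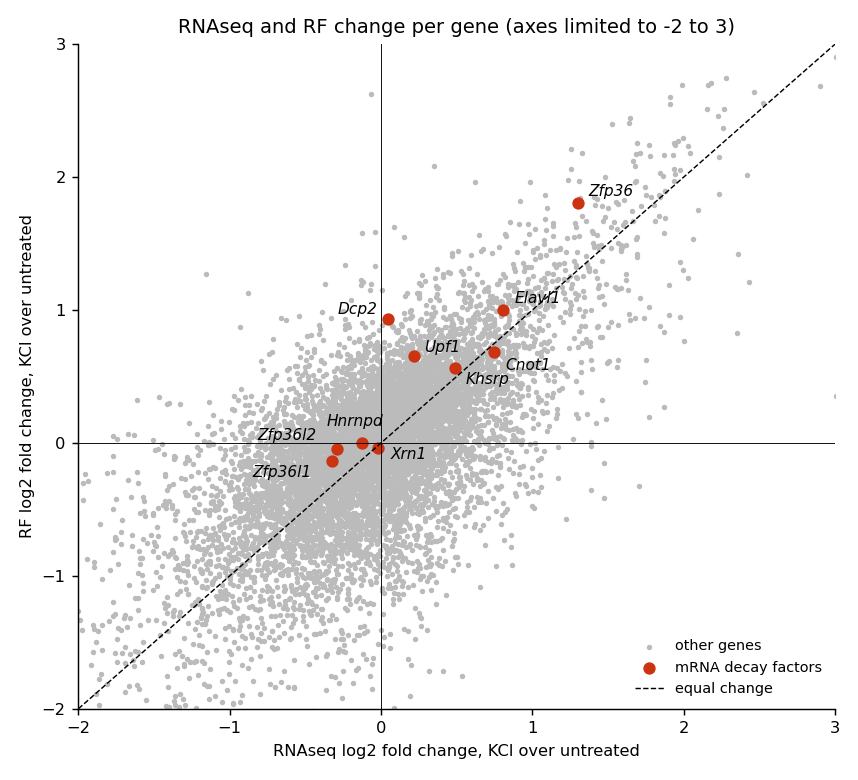
Log2 fold change of KCl over untreated cultures in RNAseq (horizontal) and RF (vertical) for each gene tested in both assays, with the 10 decay factors in red, other genes in grey and the dashed line at equal change (both axes limited to -2 to 3). Zfp36 lies at 1.30 and 1.80, Elavl1 at 0.81 and 1.00, Cnot1 at 0.75 and 0.69, and Dcp2 at 0.04 and 0.93.

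Levels spanned a wide range between the members. In untreated RNAseq (RPKM, per transcript length), Zfp36l1 led at a mean of 58.9, followed by Zfp36 (31.6), Zfp36l2 (25.8), Cnot1 (19.0), Elavl1 (17.8), Hnrnpd (16.2), Khsrp (14.3), Upf1 (11.9), Dcp2 (4.99) and Xrn1 (3.45). Ranges of the 3 untreated cultures overlapped between Cnot1 and both Elavl1 and Hnrnpd, between Hnrnpd and Khsrp and between Khsrp and Upf1. The order is that of the lead transcripts and rests on the isoform chosen. The other 3 Hnrnpd transcripts had untreated RNAseq means of 43.2, 55.2 and 57.6 RPKM, and Zfp36l1-202 had 31.4 RPKM. In untreated RF (RPKM, per CDS length) the order was headed by Elavl1 (160) and Hnrnpd (131), which did not overlap, and Khsrp (8.62) and Dcp2 (7.61), which overlapped, were lowest. Untreated TE of the lead transcripts ran from 0.433 ± 0.085 (SD, n = 3) for Zfp36l1 to 8.96 ± 0.56 (SD, n = 3) for Elavl1. The TE of Zfp36l1 was below that of all but 2.44% of genes and that of Zfp36 below all but 8.91%, whereas 94.3% of genes had a TE below that of Hnrnpd and 80.3% one below that of Upf1. These places rest on the isoform chosen: the other 3 Hnrnpd transcripts had untreated TE of 2.28, 2.43 and 2.71, above 54.9 to 64.5% of genes, and Zfp36l1-202, with the same footprints as the lead, had 0.834, above 10.6% of genes. TE depends on the annotated transcript and on where its RNAseq reads fall, and 83.9 to 92.3% of the CDS and 3′UTR reads of Zfp36l1 and 91.0 to 96.7% of those of Zfp36l2 fell on the 3′UTR.

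The shift of RNAseq reads towards the 3′UTR was read for every member. In 4 of 10 genes (Zfp36, Elavl1, Upf1 and Xrn1) both KCl cultures lay above all untreated cultures in the 3′UTR share, and in 1 (Hnrnpd, 25.5 to 35.4% in untreated and 25.4 and 20.8% in KCl cultures) both lay below. Of 9782 genes, 14.8% lay above and 8.52% below in this way. Xrn1 rests on 0 to 6 reads per library on a 3′UTR of 218 bases. The groups of Hnrnpd nearly touched, at 25.47% in untreated culture 3 and 25.42% in KCl culture 4. In each other Hnrnpd transcript they overlapped. The share of Upf1 was 73.4 ± 1.8% (SD, n = 3) without and 80.7 and 76.5% with KCl. Khsrp, Cnot1, Zfp36l1, Zfp36l2 and Dcp2 overlapped between the groups, and these shares were not tested further.

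**Figure D4:**
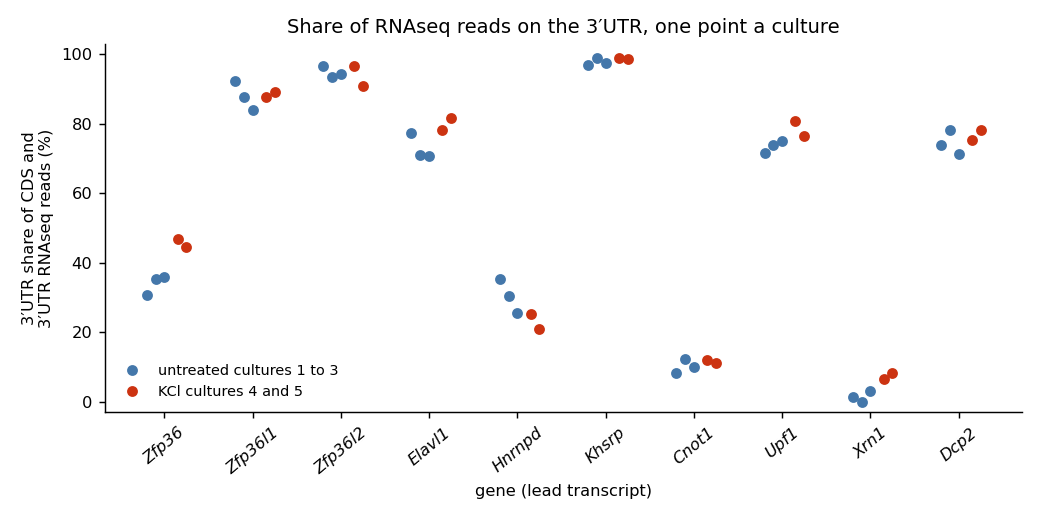
Percentage of CDS and 3′UTR RNAseq reads that fell on the 3′UTR, one point for each of the 3 untreated (blue) and 2 KCl (red) cultures and each gene's lead transcript. Zfp36 moves from 30.6 to 35.9% in untreated to 46.8 and 44.6% in KCl cultures, while Khsrp and Zfp36l2 stand above 90% in all cultures.

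Partners of the members were read from lists of known pathway genes, without the members themselves, and their counts stand beside the shares over all genes, which in RNAseq were 13.4% for a rise and 12.2% for a fall (median -0.02) and in RF 17.5% and 15.1% (median -0.00). In the CCR4-NOT and PAN2-PAN3 deadenylation list, 8 of 18 genes rose and 3 fell in RNAseq (median log2 0.28), and 5 rose and 4 fell in RF (median 0.04), so that the 3 lower in RNAseq are near the all-gene share. Tob2, an adaptor that links RNA-binding proteins to the deadenylase, rose from 8.36 to 9.72 RPKM in untreated to 34.8 and 34.4 RPKM in KCl cultures in RNAseq (log2 1.93, adjusted p = 9.59e-17, edgeR) and had a log2 rise of 2.17 in RF. Pan3, a subunit of the PAN2-PAN3 deadenylase, rose by 1.27 in RNAseq and 1.37 in RF, and Btg1, a further adaptor of the BTG/TOB family, rose by 0.93 in RNAseq. Cnot9, a subunit of CCR4-NOT, went the other way, at 38.1 to 42.9 RPKM in untreated and 20.9 and 15.0 RPKM in KCl cultures in RF (log2 -1.25, adjusted p = 6.32e-06, edgeR). In the decapping list, 2 of 14 genes rose in RNAseq and 2 of 11 in RF, which is close to the all-gene shares, and by edgeR 0 fell. Patl1, a decapping activator, rose in both (log2 0.51 in RNAseq and 0.76 in RF), Lsm14a in RNAseq (0.69) and the helicase Ddx6 in RF (1.02).

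Among genes of NMD and the exon junction complex, 4 of 14 rose and 3 fell in RNAseq (median log2 0.21), where 13.4% of all genes rose and 12.2% fell, and 6 of 12 rose in RF (median 0.20), where 17.5% did. Upf2, the partner of Upf1, was at 9.86 to 17.3 RPKM in untreated and 27.0 and 26.5 RPKM in KCl cultures in RF (log2 1.14, adjusted p = 5.08e-07, edgeR), Magoh rose in both assays (1.10 in RNAseq and 0.88 in RF), and Smg8 rose in RF (0.73). Upf3b and Dhx34 fell in RNAseq (-1.45 and -1.41), and Upf3b was the 1 gene of the list with a called TE difference, a rise of 1.43 (adjusted p = 0.0268, edgeR). The exosome and SKI list holds the machinery that degrades mRNA from the 3′ end. In RNAseq 5 of 13 genes fell, 1 rose and 7 did not pass the test (median log2 -0.63), beside 12.2% of all genes lower. In RF 5 fell and 1 rose (median -0.32), beside 15.1% lower. Exosc4 and Exosc7 fell in both assays, and the other genes that fell differed between them. Hbs1l was the gene that rose in both. Exosc7, a core subunit, fell from 17.2 to 27.1 RPKM in untreated to 3.09 and 5.54 RPKM in KCl cultures in RNAseq (log2 -2.31, adjusted p = 5.73e-08, edgeR) and had a log2 fall of -1.19 in RF. Exosc9 and Exosc4 fell in RNAseq (-1.97 and -1.31), Exosc2 and Dis3l in RF (-0.68 and -0.67), and Exosc9 had a called TE rise of 1.64 (adjusted p = 0.00783, edgeR).

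Other RNA-binding proteins that regulate decay rose in 8 and fell in 2 of 24 tested in RNAseq (median log2 0.32), and rose in 11 of 21 with none called lower by edgeR in RF (median 0.52), beside 13.4% and 17.5% of all genes higher. Fubp1, a relative of Khsrp, rose from 91.4 to 109 RPKM in untreated to 297 and 255 RPKM in KCl cultures in RF (log2 1.45, adjusted p = 2.88e-19, edgeR) and by 1.11 in RNAseq. Rc3h1 (Roquin-1) rose by 1.36 in RNAseq, Tial1 rose by 1.12 in RF, and Elavl2, a neuronal relative of Elavl1, fell in RNAseq (-0.94). Of mRNAs known as targets of AU-rich element decay, 14 of 25 rose and 7 fell in RNAseq (median 0.78). In RF, 15 of 27 rose and 7 fell (median 0.73). Over all genes, 13.4% rose and 12.2% fell in RNAseq, and 17.5% rose and 15.1% fell in RF. The list was chosen with earlier results known and holds immediate early genes such as Fos, which the paper describes as induced by KCl. Its share of rises is therefore a description and no test. Nr4a2, a nuclear receptor of the immediate early response, went from 1.16 to 1.72 RPKM in untreated to 54.3 and 48.1 RPKM in KCl cultures in RNAseq (log2 5.23, adjusted p = 4.89e-34, edgeR). Ptgs2 (COX-2) rose by 2.78 in RNAseq and 3.44 in RF. Ccl2, a chemokine, fell from 112 to 212 RPKM to 20.03 and 20.1 RPKM in RNAseq (log2 -3.05) and also in RF (-3.23, adjusted p = 0.0278, edgeR). Tnf, Cxcl1, Socs3, Csf1, Ccnd1 and Bcl2 were the other genes that fell in both assays. In TE, Jun rose (0.74) and Lats2 fell (-0.74), the 2 called of 25.

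**Figure D5:**
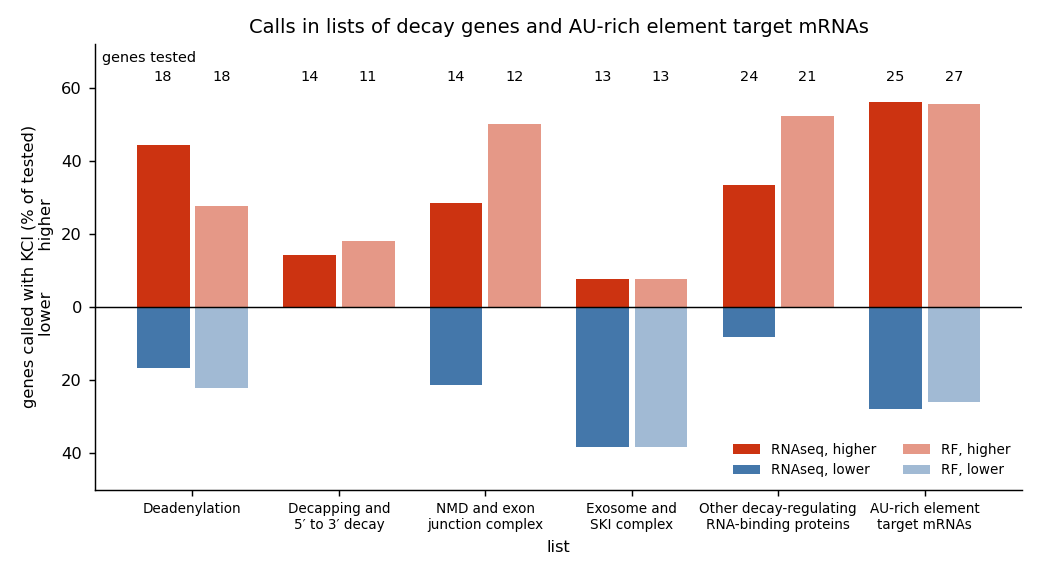
Percentage of tested genes called higher (red, upwards) or lower (blue, downwards) with KCl in RNAseq (dark) and RF (light) for 6 lists, with the number of genes tested above each bar. The exosome and SKI list has 5 of 13 genes lower and 1 higher in each assay, and the decapping list has none lower.

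Profiles most like those of the ZFP36 family were sought by Pearson r of log2 normalized CPM (pseudocount 0.5), centred within each assay, over the 10 libraries, among 9159 genes. The points come from 5 cultures and share their library depth, so r is a description. Closest to Zfp36 were Emx2 (r = 0.988), Gadd45b (r = 0.988) and Irs1 (r = 0.985), all of which rose in both assays. Gadd45b, a stress and activity response gene, rose by 1.48 in RNAseq and 2.00 in RF on the log2 scale. Closest to Zfp36l1 were 6430548M08Rik (r = 0.976), Hells (r = 0.946) and Rap2c (r = 0.940), and closest to Zfp36l2 were a transcript with no gene name (r = 0.936), Ahr (r = 0.922) and Cpt1a (r = 0.916). Of these, 6430548M08Rik, Rap2c and Ahr fell in RNAseq and none was called in RF.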

How the data were processed

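RNAseq and RF libraries of 3 untreated and 2 KCl cultures were analysed (10 libraries, grouped by their labels). A further KCl replicate, removed for low library size per the study's methods, was not analysed here. The authors trimmed reads (Trimmomatic 0.32), removed rRNA (STAR 2.3.1z8), aligned to the mm10 Ensembl 75 transcriptome without degenerate sequences (bowtie2 2.2.2), retained multi-mapping reads, and deposited raw counts per transcript region from BEDTools 2.20.1, without normalization. Region letters were assigned from read share against region length over 10931 transcripts (Spearman 0.44 for the 5′UTR, 0.64 for the CDS and 0.66 for the 3′UTR), and the fourth region is unnamed. RNAseq cDNA was unstranded.

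Of 22534 transcripts, 22172 (98.4%) matched GENCODE M21 (GRCm38). Counts were tested with edgeR 4.0.16 (R 4.3.3), quasi-likelihood with robust dispersions, TMM within each assay, a minimum mean of 10 reads per library, and Benjamini-Hochberg adjustment over 16844 (RNAseq), 16587 (RF) and 15579 (TE) transcripts, with a threshold of 0.05. TE was the interaction of assay and KCl, with culture as a replicate block, since RNAseq and RF came from 1 lysate per culture by the study's methods. Deviations of same-numbered libraries from their group means correlated at -0.040 to 0.022. The labels do not say whether cultures came from separate animals, so p-values measure the spread between these cultures. The model was also run on simulated data with a fixed dispersion and no culture effect, which does not show how it performs on these cultures. Named were the 10 members by lead transcript, any called transcript, at most 3 genes per list and assay (largest change among calls without overlap) and the 3 most alike genes per family member. A gene that this rule would name is not reported here. Members and lists were chosen with earlier results of these data known. Positions around start and stop codons, which the study left out for TE, could not be removed from counts per region. Python 3.11.15 and DESeq2 1.42.0 were also used. The alternatives were DESeq2, library totals, other filters, gene sums, CDS or all-region reads, a joint fit and each culture left out.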

Additional observations from a re-analysis of the deposited data

How the results depend on the processing

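The RF calls of Zfp36, Elavl1, Cnot1 and Upf1 and the RNAseq calls of Zfp36 and Cnot1 held under each alternative run, and no TE of a member was called under any, the fit without the replicate block included, in which 411 transcripts were called against 465 with it. Of 392 values of members under alternatives, 339 kept direction and side of the threshold, 19 lost and 3 gained a call, and 31 changed sign, all of them uncalled. With CDS reads only, 2 members rose in RNAseq, where 1178 of all 13359 transcripts tested did. With library totals 2 members fell in RNAseq, where 2907 of 16844 transcripts did. With the study's RPKM filter 1 member fell in RNAseq, where 1140 of 7258 transcripts did.

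Calls in RNAseq numbered 4174. They came to 2537 with 1 transcript per gene (an alternative added after the data were seen, as isoforms share reads), 2213 with reads summed per gene, 1994 with CDS reads only, 2410 with the study's filter, and 2499 to 4493 with a culture left out. Calls in RF numbered 5314, and 3151 with 1 transcript per gene, 3203 with DESeq2, 2777 summed per gene, 2973 with the study's filter and 2564 to 5563 with a culture left out. Calls in TE numbered 465, and 296 with 1 transcript per gene, 174 with DESeq2, 157 summed per gene, 303 with RNAseq CDS reads only and 52 to 609 with a culture left out. Fewer transcripts were tested with 1 transcript per gene, gene sums, CDS reads and the study's filter. Why their counts of calls, and those with DESeq2, differ from the main ones was not tested. Where a KCl culture is left out, the lone KCl culture is assumed to vary like the untreated ones. Library totals moved the median log2 change to -0.15 in RNAseq and -0.18 in RF, and the share of rises among calls from 53.6 to 35.8% and from 53.0 to 30.8%.

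Sign changes on the log2 scale were as follows. In RNAseq, Dcp2 became -0.089 with library totals, -0.11 with CDS reads only and ranged from -0.10 to 0.18 with a culture left out. Hnrnpd became 0.078 and Upf1 -0.045 with CDS reads only, and with a culture left out Upf1 ranged from -0.018 to 0.41 and Xrn1 from -0.28 to 0.19. In RF, Hnrnpd became -0.0022 in 1 fit of all 10 libraries, -0.0048 with 1 transcript per gene, -0.17 with library totals, -0.0080 without a filter beyond 1 read, -0.0067 with reads on all regions and -0.069 with the study's filter. With a culture left out, RF ranged from -0.14 to 0.16 for Hnrnpd, from -0.15 to 0.11 for Xrn1 and from -0.18 to 0.14 for Zfp36l2. In TE, Xrn1 became 0.016 with DESeq2, 0.00090 summed per gene and 0.073 with CDS reads only, Hnrnpd -0.11 with CDS reads only and Khsrp 0.067 without the replicate block. With a culture left out, TE ranged from -0.33 to 0.39 for Xrn1, from -0.36 to 0.17 for Khsrp and from -0.17 to 0.022 for Cnot1. Depth limits Dcp2 and Khsrp in RF, with 18 to 56 and 29 to 139 CDS footprints per library, and Xrn1 in RNAseq, with 48 to 74 reads.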

Other observations

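Footprints upstream of the CDS varied between the members. Over all transcripts, 6.71, 6.08 and 8.65% of CDS and 5′UTR footprints lay on the 5′UTR in untreated and 6.98 and 7.59% in KCl cultures. For Zfp36l1, with an annotated 5′UTR of 138 bases, the share was 29.4, 37.6 and 49.2% in untreated (83, 109 and 30 footprints) and 28.9 and 33.3% in KCl cultures (13 and 33 footprints). In RNAseq, 40.4 to 43.2% of its CDS and 5′UTR reads per library lay on the 5′UTR, beside 3.70 to 4.02% over all transcripts. Khsrp had 17.1 to 34.6% of these footprints on its 5′UTR, Hnrnpd 10.5 to 25.3% and Zfp36l2 9.09 to 26.2%, whereas Elavl1 had 0.938 to 1.83% and Upf1 1.89 to 4.62%. The matching RNAseq share was 17.4 to 58.8% for Zfp36l2, on 7 to 20 CDS reads per library, and 0 to 5.51% for Hnrnpd. Khsrp had 0 RNAseq reads on its 5′UTR and 2 to 4 on its CDS per library. Footprint shares of untreated and KCl cultures overlapped for Zfp36l1, Hnrnpd and Zfp36l2. For Khsrp both KCl cultures (17.1 and 23.1%) lay below the untreated ones (23.2, 34.6 and 28.3%), and no difference was tested. The positions of footprints within the 5′UTR are not given by counts per region.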
